A study of Mus musculus with 160 samples.

Results

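The genes described here were 34 mouse interferon response genes, chosen by their symbols and not by their levels. They comprised 4 receptor chains (Ifnar1, Ifnar2, Ifngr1, Ifngr2), 8 transcription factors (Irf1, Irf2, Irf3, Irf4, Irf5, Irf7, Irf9, Stat2), 6 genes of the Ifit and Ifitm families (Ifit1, Ifit2, Ifit3, Ifitm1, Ifitm2, Ifitm3), 10 other antiviral effectors and sensors (Isg15, Isg20, Mx1, Mx2, Rsad2, Bst2, Usp18, Ifih1, Eif2ak2, Xaf1), 2 guanylate-binding proteins (Gbp2, Gbp3) and 4 genes of antigen processing (Psmb8, Psmb9, Tap1, B2m). Each symbol matched 1 of the 46078 gene rows of the count table.

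RNA sequencing was done on cells from the aorta-gonads-mesonephros (AGM) region, the part of the mid-gestation embryo around the dorsal aorta where the first hematopoietic stem cells appear. All embryos, those giving the Gata3-GFP- cells included, were Gata3-GFP +/-: 1 Gata3 allele carried a knocked-in green fluorescent protein (GFP), and GFP+ and GFP- cells were sorted from this shared genotype. At E10.5 the endothelial cells (EC) were Cdh5+ CD41- CD45- and the hematopoietic cells (HC) are labeled CD41+ CD45+; the study's methods write this gate as CD41/45+ and list antibodies to both in 1 color, so the gate may have held cells with either marker. At E11.5 the mesenchymal cells (MC) were Pdgfrb+ and the sympathetic nervous system cells (SNS) were Ngfr+. Each of the 8 populations had 20 libraries, each made by Smart-seq2 from a pool of 20 cells. Because every library held a pool, fewer cells with a transcript and less of it per cell cannot be told apart. Cells of several embryos were mixed before sorting and no label ties a pool to an embryo, so p-values measured only the spread between pools, part of which may be technical.

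Interferons are secreted proteins that cells release on sensing viral nucleic acid. Type I interferons bind the Ifnar1 and Ifnar2 chains and interferon gamma binds Ifngr1 and Ifngr2, and both activate Janus kinases that phosphorylate STAT proteins. STAT complexes that contain Stat2 and Irf9 bind the interferon-stimulated response element (ISRE), whereas STAT dimers bind the gamma-activated site (GAS). Their targets block viral entry and replication or raise antigen presentation. Low interferon signaling without infection is also known in the embryonic AGM, where it has been linked to the formation of hematopoietic stem cells.

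Promoters of the members were searched for the ISRE core, GAAA followed 2 bases later by a second GAAA, and for the GAS motif TTCNNNGAA on both strands, from 250 bases before to 50 bases after each RefSeq transcription start (GRCm38.p6). Of the 34 members, 31 had an entry; Mx1, Mx2 and Usp18 had none. The ISRE core was present for 14 of the 31 (45.2%), against 3.99% of 27025 genes. The GAS motif was present for 10 (32.3%), against 9.55% of all genes, and 4 members had both (Bst2, Eif2ak2, Ifitm3 and Irf2). In Bst2 and Ifitm3 a GAS match overlapped an ISRE core. These matches describe letters and were not assayed for binding. The first 4 stretches below belong to members whose levels differed between Gata3-GFP+ and Gata3-GFP- EC, and the last 3 to classic interferon targets with too few counts to be tested in EC. Capitals mark the ISRE core on either strand, and each stretch is written 5′ to 3′ along its gene.
B2m: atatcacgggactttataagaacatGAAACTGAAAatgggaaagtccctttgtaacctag
Bst2: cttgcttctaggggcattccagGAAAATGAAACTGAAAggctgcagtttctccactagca
Irf2: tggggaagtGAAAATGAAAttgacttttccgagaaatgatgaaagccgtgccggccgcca
Rsad2: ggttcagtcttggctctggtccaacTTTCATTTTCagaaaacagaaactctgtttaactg
Isg15: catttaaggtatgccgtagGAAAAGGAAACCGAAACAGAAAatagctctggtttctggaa
Ifit1: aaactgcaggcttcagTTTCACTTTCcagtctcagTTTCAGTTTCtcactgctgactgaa
Ifit3: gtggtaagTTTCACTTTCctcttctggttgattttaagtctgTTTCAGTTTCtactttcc

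These stretches lie upstream of the annotated starts, at chr2:122147523-122147582 (plus strand) for B2m, chr8:71537565-71537624 (minus) for Bst2, chr8:46739495-46739554 (plus) for Irf2, chr12:26456538-26456597 (minus) for Rsad2, chr4:156200856-156200915 (minus) for Isg15, chr19:34640769-34640828 (plus) for Ifit1 and chr19:34583365-34583424 (plus) for Ifit3. Isg15 had 3 cores in a row, whereas Bst2, Ifit1 and Ifit3 had 2 each and B2m, Irf2 and Rsad2 had 1. A single core stood 120 bases before the start of Rsad2 and 139 bases before that of B2m. The same motif therefore preceded genes with unlike levels in EC, which are given below.

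Of the 160 libraries, 153 passed the quality limits, leaving 19 Gata3-GFP+ and 20 Gata3-GFP- EC, 20 and 20 HC, 20 and 17 MC, and 18 and 19 SNS pools. Counts over genes ranged from 1400824 to 16004756 per pool (median 3801233), and the 3 counts that a count of 0 allows amounted to 0.187 to 2.14 CPM (counts per 1000000 gene counts) per pool. These floors cover counting error only. Gata3 itself was higher in Gata3-GFP+ than in Gata3-GFP- EC (log2 fold change 2.66), HC (2.89) and SNS (1.86). Cdh5 was lower in HC than in EC (log2 fold change -6.64) and Ptprc, which encodes CD45, was higher (5.89). At E11.5, however, 12 pools, 3 in each population, carried transcripts against their sorting gate. In the 3 such pools labeled Gata3-GFP+ MC, Pdgfrb was 1.09 to 12.4 CPM and Ngfr 290 to 323 CPM, whereas the other 17 pools had Pdgfrb at 167 to 291 CPM and Ngfr at no more than 11.3 CPM. The 3 labeled Gata3-GFP+ SNS had Pdgfrb at 116.5 to 131 CPM and Ngfr at no more than 7.21 CPM. Those labeled Gata3-GFP- MC had Pdgfrb at 0.952 to 1.89 and Ngfr at 28.85 to 110.7 CPM, and those labeled Gata3-GFP- SNS 136 to 249.5 and 4.23 to 7.73 CPM. Gata3 ran against the GFP label in these pools: 16.2 to 82.2 CPM in Gata3-GFP+ and 122.6 to 394.7 CPM in Gata3-GFP- MC, and 9.96 to 24.3 and 44.35 to 50.1 CPM in SNS. Whether labels were exchanged was not tested. No pool was moved to another group, each E11.5 comparison was run with and without these 12, and the pools behind a value are named beside it. With them Gata3 did not pass the test between Gata3-GFP+ and Gata3-GFP- MC (log2 fold change -0.66, edgeR adjusted p = 0.496), and without them it was higher in Gata3-GFP+ MC (1.88, adjusted p = 8.98e-08).

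The number of members detected differed between cell types. Over the pools whose markers matched their gate, at least 10 counts in 50% or more of the pools were reached by 28 members in Gata3-GFP+ HC and 27 in Gata3-GFP- HC, by 19 and 16 in EC, by 17 and 17 in MC and by 15 and 16 in SNS. The highest median was in Gata3-GFP- HC for 20 members, in Gata3-GFP+ HC for 5, in Gata3-GFP+ EC for 5, in Gata3-GFP+ SNS for Ifit2, in Gata3-GFP- EC for Rsad2, and 2 members (Irf4 and Ifit3) had a median of 0 in every population. Ifit1, an RNA-binding inhibitor of viral translation, was the only member tested in no comparison: its highest level was 15.2 CPM, in 1 Gata3-GFP+ HC pool, and its median did not pass 0.217 CPM in any population.

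**Figure D1:**
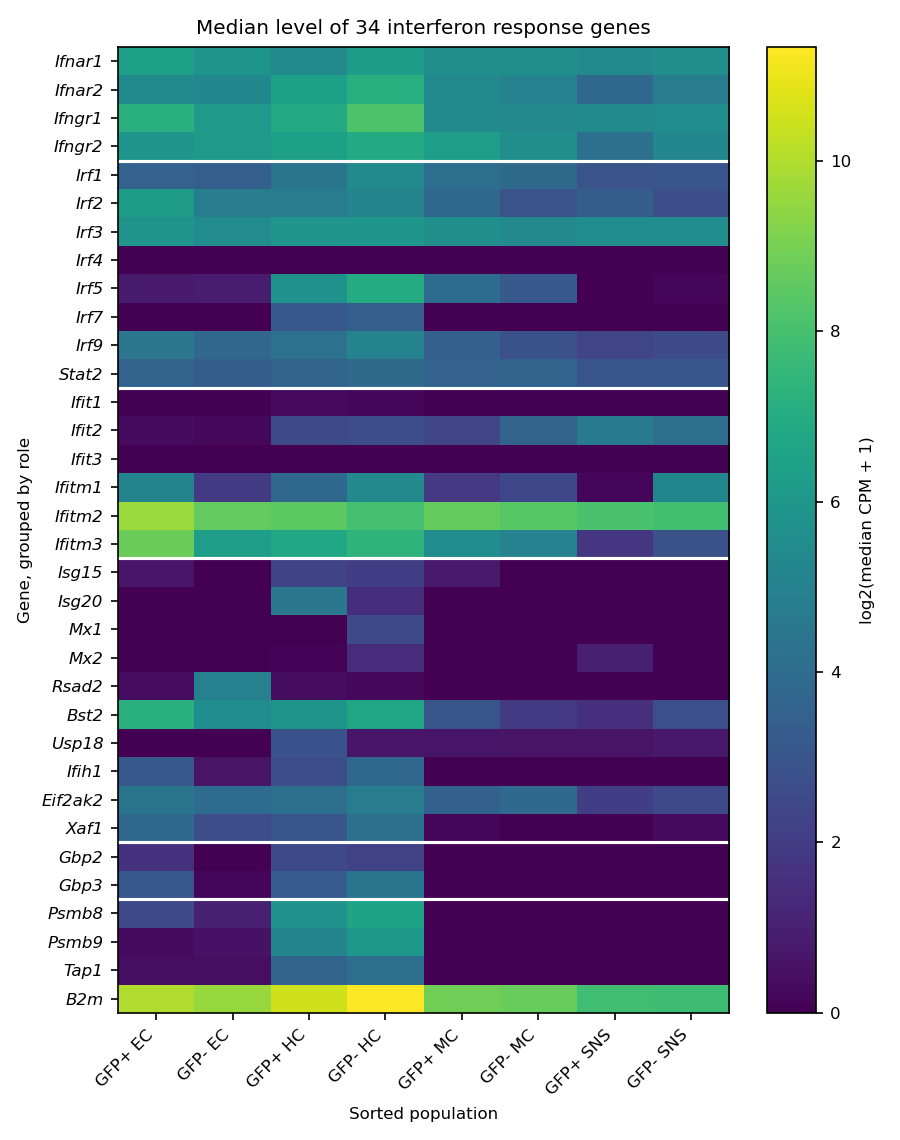
Median level of each of the 34 interferon response genes (rows, grouped by role) in each of the 8 sorted populations (columns), as log2(CPM + 1), over the pools that passed and, at E11.5, matched their gate. The 2 HC columns are the most filled, receptors, B2m and Ifitm2 are present in all 8 columns, and Rsad2 stands out in Gata3-GFP- EC.

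Expressed per kilobase of exon, the highest medians in Gata3-GFP- HC were those of B2m, the light chain of MHC class I (3006 CPM per kb), Ifitm2 (381 CPM per kb) and Ifitm3 (244 CPM per kb), membrane proteins that restrict viral entry. In Gata3-GFP+ EC the medians of Ifitm2 (1196 CPM per kb) and B2m (1175 CPM per kb) were the highest, followed by Ifitm3 (649 CPM per kb). Ifitm2 overlaps the gene Gm45717 on the same strand over 40.9% of its exon length, so its counts are uncertain.

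The 4 receptor chains were detected in all populations, with at least 10 counts in every pool that passed. Over all pools that passed, the median of Ifnar1 lay between 41.9 CPM in Gata3-GFP+ SNS and 82.5 CPM in Gata3-GFP+ EC. That of Ifnar2 lay between 14.1 CPM in Gata3-GFP+ SNS and 138 CPM in Gata3-GFP- HC, and that of Ifngr1 between 37.3 CPM in Gata3-GFP- MC and 285 CPM in Gata3-GFP- HC. Ifngr2 had medians from 17.5 CPM in Gata3-GFP+ SNS to 119 CPM in Gata3-GFP- HC. All 8 populations held transcripts of both receptors.

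The interferon ligand genes that were looked up were almost absent. These were 9 listed genes (Ifna1, Ifna2, Ifna4, Ifnb1, Ifne, Ifng, Ifnk, Ifnl2 and Ifnl3), and other ligand genes were not looked up. Of the 9, 6 reached 10 counts in none of the 153 pools, Ifng and Ifna4 each having 1 count in all. Ifnk had 53 counts, with 10 or more in 2 pools and at most 16, in a Gata3-GFP+ EC pool. Ifnb1 had 171 counts, of which 156 came from 1 Gata3-GFP- HC pool. Of the classic targets, Ifit3 and Mx1 were low in EC. Ifit3 had 1 count in the Gata3-GFP+ EC pools in all and 0 in the Gata3-GFP- EC pools. Mx1, a gene of the Mx GTPase family, did not pass 1.11 CPM in any EC pool. Other targets had their highest median in EC: Rsad2 in Gata3-GFP- EC (29.4 CPM), and Bst2 and Ifitm3 in Gata3-GFP+ EC (143 and 440 CPM).

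Between Gata3-GFP+ and Gata3-GFP- EC, most of the members with enough counts were higher in the Gata3-GFP+ pools, among them all 3 Ifitm genes, the ISRE repressor Irf2, the tetherin gene Bst2, both Gbp genes and the receptor chains Ifnar1 and Ifngr1. Rsad2, which encodes the antiviral enzyme viperin, was lower. Of the 34 members 22 were tested, 14 were higher and 1 lower; 36% of all 15073 genes tested were called in either direction, 19.5% as higher and 16.5% as lower. The median log2 fold change was 0.94 over the 22 members and 0.10 over all genes. Of the 22, 5 (Psmb8, Ifih1, Gbp3, Gbp2 and Ifit2) passed the count filter only through the Gata3-GFP+ pools, which in itself places them higher there. Among the 17 that passed in each population alone, 10 were higher and 1 lower, with a median of 0.67. Among the called members the direction depended on the scaling for Ifnar1, Irf3 and B2m, whose log2 fold changes became -0.061, -0.34 and -0.40 when libraries were scaled to their ERCC spike-ins; Irf1, Ifnar2 and Stat2, which were not called, also changed sign. That scaling moved the median of all genes from 0.10 to -0.60, the spike-in share of reads being 1.67% in Gata3-GFP+ and 0.950% in Gata3-GFP- EC (medians), and left 6 members higher (Irf2, Ifitm1, Ifitm3, Bst2, Gbp2 and Gbp3) and 2 lower. Over all 15073 genes tested it called 951 as higher and 5685 as lower.

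**Figure D2:**
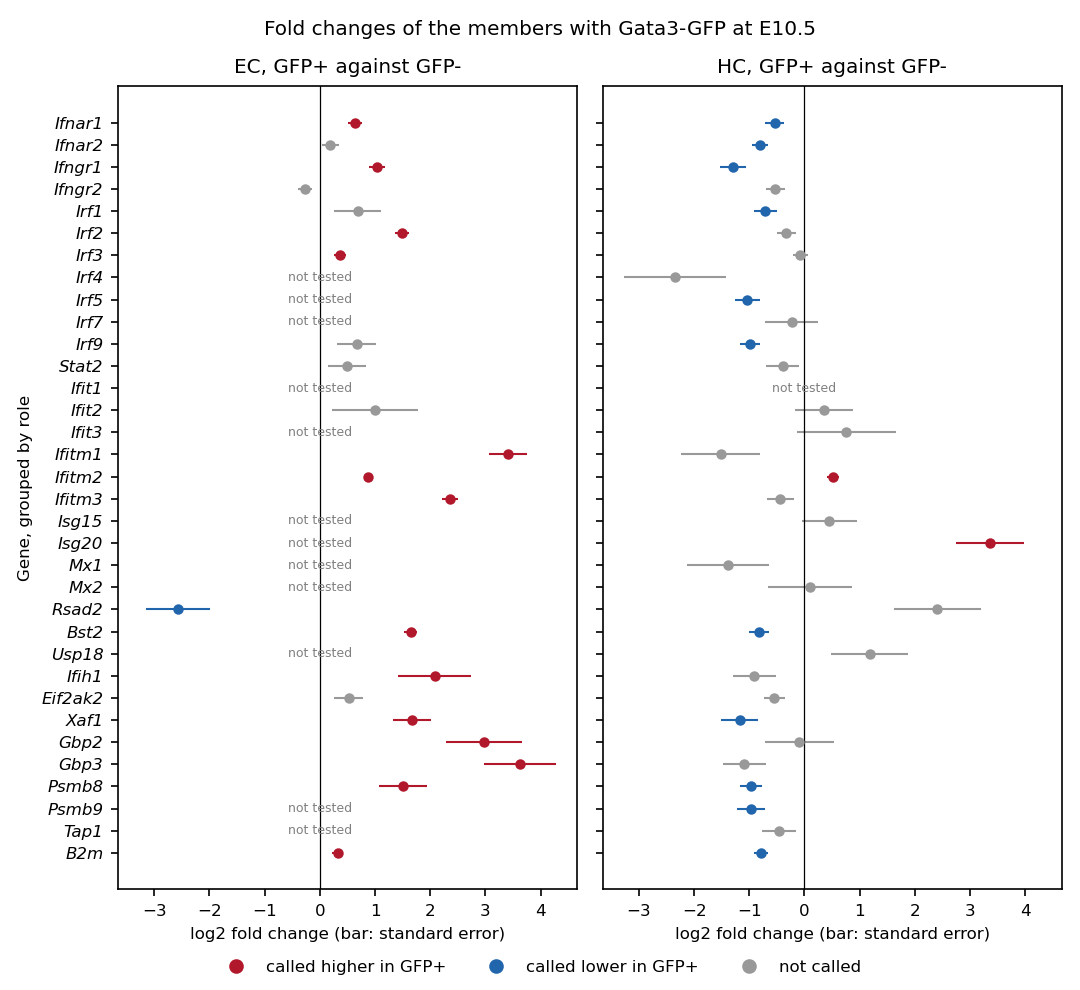
Log2 fold change of Gata3-GFP+ against Gata3-GFP- pools for each member tested in EC (left) and in HC (right), with bars of 1 SE; red marks members called as higher, blue as lower and gray not called. In EC 14 members are called to the right of 0 and Rsad2 to the left, and in HC 11 are called to the left and Isg20 and Ifitm2 to the right.

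Among the Ifitm genes, Ifitm3 separated the EC populations completely. Its level was 234 CPM in the lowest, 440 CPM in the median and 634 CPM in the highest Gata3-GFP+ EC pool, and 44.6, 81.1 and 140 CPM in the Gata3-GFP- EC pools. The log2 fold change was 2.36 ± 0.14 (SE; edgeR adjusted p = 9.47e-18). All 19 Gata3-GFP+ pools lay above all 20 Gata3-GFP- pools, as for 3.03% of genes tested. Ifitm1 ranged from 10.46 to 94.7 CPM (median 32.6) against 0.308 to 11.04 CPM (median 2.82), with 18 of 19 Gata3-GFP+ pools above every Gata3-GFP- pool (log2 fold change 3.41 ± 0.34, adjusted p = 3.5e-11). Ifitm2 was abundant in both, at medians of 783 and 392 CPM, and higher in Gata3-GFP+ EC by a log2 fold change of 0.87 ± 0.07 (adjusted p = 4.67e-13). Ifit2, a relative of Ifit1, was at medians of 0.257 and 0.175 CPM and did not pass the test.

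The other members without overlap between the EC populations were Irf2 and Bst2. Irf2 was 55.3, 72.0 and 127 CPM (lowest, median, highest) in Gata3-GFP+ and 14.8, 26.8 and 46.9 CPM in Gata3-GFP- EC, a log2 fold change of 1.49 ± 0.13 (adjusted p = 3.94e-13). Bst2, whose product tethers budding virions to the cell surface, was 90.0, 143 and 193 CPM against 22.1, 44.4 and 78.5 CPM, a log2 fold change of 1.65 ± 0.12 (adjusted p = 1.66e-15). Both genes had at least 10 counts in every EC pool, so neither difference rested on missing values.

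**Figure D3:**
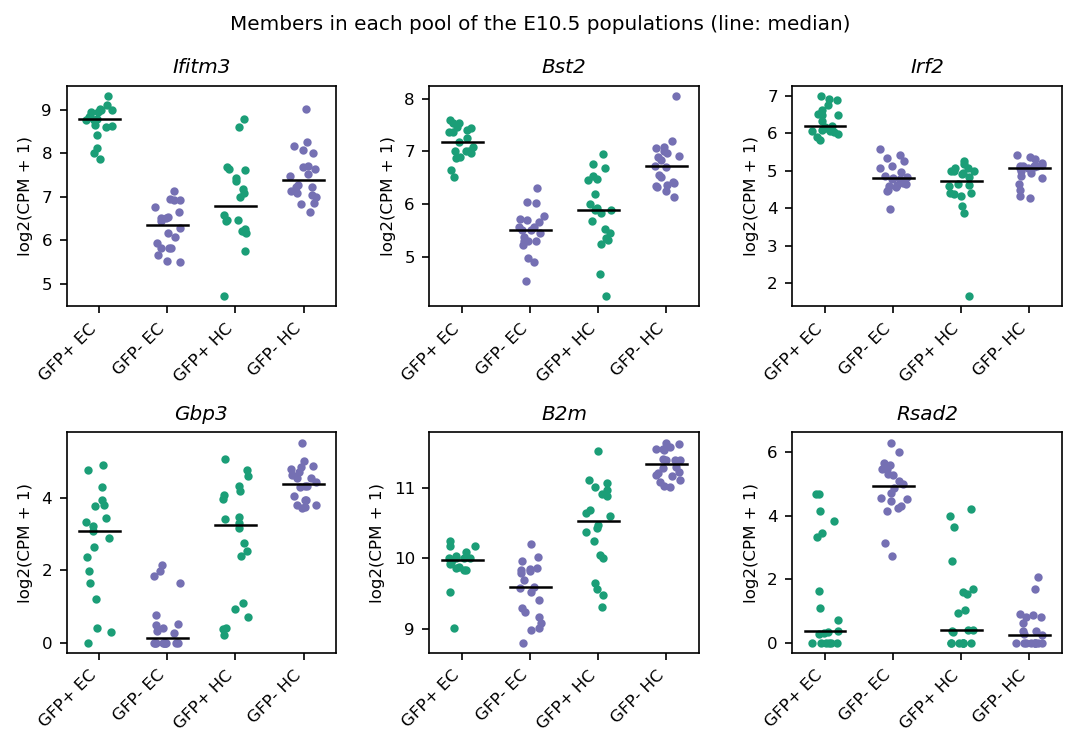
Level of Ifitm3, Bst2, Irf2, Gbp3, B2m and Rsad2, as log2(CPM + 1), in every pool that passed (points) of the 4 E10.5 populations, with the median of each population as a line. Ifitm3, Bst2 and Irf2 show no overlap between the EC populations, Rsad2 is highest in Gata3-GFP- EC, and the HC populations overlap in all 6 genes.

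Of the receptor chains, Ifngr1 was 70.9 to 239 CPM (median 145) in Gata3-GFP+ and 29.8 to 106 CPM (median 67.3) in Gata3-GFP- EC (log2 fold change 1.03 ± 0.15, adjusted p = 1.22e-07). Ifnar1 had medians of 82.5 and 57.2 CPM (0.63 ± 0.13, adjusted p = 8.17e-05). Their partner chains Ifngr2 (medians 60.8 and 68.4 CPM) and Ifnar2 (42.1 and 38.5 CPM) did not pass the test, at log2 fold changes of -0.27 and 0.19. The pools of all 4 chains overlapped. For both receptors the chain that was higher in Gata3-GFP+ EC was paired with one for which no difference was called.

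The transcription factors were mixed. Irf3, which is activated by nucleic acid sensors, was slightly higher in Gata3-GFP+ EC (medians 58.6 and 42.7 CPM, log2 fold change 0.36 ± 0.11, adjusted p = 0.00607). Irf9 and Stat2, which act at the ISRE, had log2 fold changes of 0.67 ± 0.36 and 0.49 ± 0.35, and Irf1 0.69 ± 0.42, none of which passed. Irf4, Irf5 and Irf7 were too low to be tested in EC, with medians of at most 0.844 CPM.

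The guanylate-binding proteins, GTPases that act on intracellular pathogens, were near 0 in most Gata3-GFP- EC pools. Gbp3 was 0, 7.46 and 28.7 CPM in Gata3-GFP+ EC and did not pass 3.45 CPM in Gata3-GFP- EC, where 1 of 20 pools had 10 counts (log2 fold change 3.64 ± 0.65, adjusted p = 1.1e-05). Gbp2 had a median of 2.09 CPM and a highest level of 10.4 CPM, against a median of 0 and a highest level of 3.01 CPM (2.97 ± 0.69, adjusted p = 0.000407). Some Gata3-GFP+ pools were at 0 for both genes.

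Of the other effectors, Xaf1, a proapoptotic protein, had medians of 13.6 and 5.40 CPM (log2 fold change 1.67 ± 0.34, adjusted p = 8.22e-05). Ifih1, which encodes the RNA sensor Mda5, had medians of 7.79 and 0.514 CPM (2.08 ± 0.66, adjusted p = 0.00866). Eif2ak2, which encodes the kinase Pkr, had medians of 19.7 and 14.4 CPM and did not pass (0.52 ± 0.26). Isg15, Isg20, Mx1, Mx2 and Usp18 were not tested in EC, and Mx2 is annotated as a polymorphic pseudogene. In antigen processing, Psmb8, an immunoproteasome subunit, was higher in Gata3-GFP+ EC at low levels (medians 4.63 and 0.994 CPM, 1.51 ± 0.44, adjusted p = 0.00421), and B2m had medians of 1010 and 771 CPM (0.32 ± 0.10, adjusted p = 0.00663). Psmb9 and Tap1, the peptide transporter subunit, stayed below the count filter.

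Rsad2 ran opposite to the other called members. In Gata3-GFP- EC it was 5.62, 29.4 and 77.4 CPM (lowest, median, highest), with at least 10 counts in all 20 pools. In Gata3-GFP+ EC it was 0, 0.288 and 24.6 CPM, with 10 counts in 6 of 19 pools, and the log2 fold change was -2.58 ± 0.58 (adjusted p = 0.000285). The ranges overlapped, although 12 of the 20 Gata3-GFP- pools were above every Gata3-GFP+ pool and 13 of the 19 Gata3-GFP+ pools were below every Gata3-GFP- pool. Outside EC its median did not pass 0.315 CPM.

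Markers of other cells also differed between the EC populations. The summed level of 8 endothelial markers was 5824 to 7848 CPM in Gata3-GFP+ and 3665 to 5466 CPM in Gata3-GFP- EC, without overlap. Of these 8, 7 were called as higher, among them Cdh5 (log2 fold change 1.27), and 1 as lower. All 7 mesenchymal markers were called as higher in Gata3-GFP+ EC, their sum ranging from 25.9 to 1547.5 CPM (median 92.0) against 3.87 to 72.0 CPM (median 15.6), and the sum of 6 epithelial and urogenital markers was 23.0 to 124.6 against 0.699 to 9.71 CPM. The sum of 8 hematopoietic markers was 169.8 to 444 CPM (median 260) against 39.7 to 128 CPM (median 86.6), without overlap, and 3 of the 7 tested were called as higher and 0 as lower. The part of these marker genes in the results was not tested. The sum of 12 macrophage markers overlapped, at 30.6 to 244 CPM (median 85.5) against 62.3 to 170 CPM (median 101), with none of the 12 called.

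Between Gata3-GFP+ and Gata3-GFP- HC, the called members were mostly lower in the Gata3-GFP+ pools: the receptor chains Ifnar1, Ifnar2 and Ifngr1, the factors Irf1, Irf5 and Irf9, the effectors Bst2 and Xaf1, and Psmb8, Psmb9 and B2m of antigen processing. Isg20, an exonuclease that degrades single-stranded RNA, and Ifitm2 were higher. Of 33 members tested, 2 were higher and 11 lower, where 26.6% of 16200 genes were called in either direction, 17.1% as higher and 9.53% as lower. The median log2 fold change was -0.54 over the members tested and 0.05 over all genes. Of the 33, 28 passed the filter in each population alone, 1 (Rsad2) only through the Gata3-GFP+ pools and 3 (Mx1, Irf4 and Mx2) only through the Gata3-GFP- pools. In no member were the pools of the 2 HC populations apart, against 0.0802% of genes tested.

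Ifngr1 showed the largest called decrease among the members. It was 3.99, 121 and 245 CPM in Gata3-GFP+ and 158, 285 and 420 CPM in Gata3-GFP- HC (log2 fold change -1.29 ± 0.23, adjusted p = 1.96e-05). Of the 20 Gata3-GFP+ pools, 16 were below every Gata3-GFP- pool. Ifnar2 was 16.9, 82.6 and 155 against 100, 138 and 194 CPM (-0.80 ± 0.15, adjusted p = 3.24e-05), and Ifnar1 had medians of 42.3 and 77.0 CPM (-0.54 ± 0.17, adjusted p = 0.00927). Ifngr2 did not pass (medians 82.9 and 119 CPM, -0.53 ± 0.17, adjusted p = 0.0143). The Ifnar1 call was lost under several alternatives, among them the DESeq2 size factors.

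Among the factors, Irf5, which drives inflammatory genes in myeloid cells, was 3.65, 55.6 and 160 CPM in Gata3-GFP+ and 82.1, 126 and 188 CPM in Gata3-GFP- HC (log2 fold change -1.03 ± 0.22, adjusted p = 0.000273). Irf9 had medians of 17.9 and 32.6 CPM (-0.98 ± 0.19, adjusted p = 4.29e-05) and Irf1 of 19.9 and 41.7 CPM (-0.71 ± 0.21, adjusted p = 0.00591). Pools overlapped for all 3. Irf2, Irf3, Irf4, Irf7 and Stat2 did not pass, their log2 fold changes lying between -2.35 for Irf4, which had a median of 0 in both, and -0.07 for Irf3.

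In antigen processing, Psmb8 was 5.65, 53.6 and 106 CPM against 67.0, 94.7 and 178 CPM (log2 fold change -0.97 ± 0.20, adjusted p = 0.000113), and 16 of 20 Gata3-GFP+ pools were below every Gata3-GFP- pool. Psmb9 had medians of 33.4 and 65.1 CPM (-0.97 ± 0.25, adjusted p = 0.00197). B2m was 634, 1484 and 2917 against 2049, 2585 and 3182 CPM (-0.78 ± 0.13, adjusted p = 7.13e-06). The highest Gata3-GFP+ pools of these genes therefore reached the Gata3-GFP- range. Tap1 had medians of 11.48 and 15.9 CPM and did not pass. Psmb8 shares 14.7% of its exon sequence with Gm20496, and Psmb9 and Tap1 overlap each other.

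Of the effectors, Bst2 was lower in Gata3-GFP+ HC (medians 58.2 and 104 CPM, log2 fold change -0.83 ± 0.18, adjusted p = 0.000237), as was Xaf1 (7.06 and 17.4 CPM, -1.17 ± 0.34, adjusted p = 0.00494). Isg20 was 0, 21.5 and 144 CPM in Gata3-GFP+ against 0, 1.81 and 10.4 CPM in Gata3-GFP- HC (3.36 ± 0.62, adjusted p = 3.02e-05), with 13 of 20 Gata3-GFP+ pools above every Gata3-GFP- pool. Ifitm2 had medians of 361 and 250 CPM (0.52 ± 0.11, adjusted p = 0.000213). These were the only members called as higher in Gata3-GFP+ HC, and Isg20 was at medians of 0 in the other 6 populations. The remaining effectors, the Gbp genes, Ifit2, Ifit3, Ifitm1 and Ifitm3 did not pass.

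The HC pools differed in which blood cells they resembled. The summed level of 4 megakaryocyte markers was 1632 to 57066 CPM (median 9042) in Gata3-GFP+ and 128 to 3695 CPM (median 574) in Gata3-GFP- HC, and all 4 were called as higher. The sum of 8 hematopoietic markers was 1656 to 3235 CPM against 3300 to 4776 CPM. Of these 8, 6 were called as lower, among them Ptprc (log2 fold change -1.09), and 1 as higher. The sum of 12 macrophage markers was 1315 to 16341 CPM (median 7295) against 7082 to 12682 CPM (median 10094), with 5 of the 12 called as lower, and the median sum of 6 granulocyte markers was 24.8 against 859 CPM. Endothelial markers (7 of 8), mesenchymal markers (7 of 7), sympathetic and neural crest markers (8 of 8) and epithelial and urogenital markers (5 of 6) were called as higher in Gata3-GFP+ HC, with median sums of 198 against 65.5, 320 against 35.0, 37.3 against 4.39 and 65.0 against 8.49 CPM. Ifitm2, 1 of the 2 members higher in Gata3-GFP+ HC, was more abundant in EC than in HC. The part of the endothelial markers in its HC call was not tested. CD41, 1 of the 2 markers named in the gate, is also the megakaryocyte integrin.

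Fits that took these marker levels into account changed the HC result. With the macrophage marker level as a covariate, 7 members were lower (Irf9, Ifngr1, Ifnar2, Psmb8, Irf5, Bst2 and B2m) and the same 2 higher. Of all 16200 genes tested, this fit called 1817 as higher and 944 as lower, against 2763 and 1544 without the covariate. With the megakaryocyte marker level as a covariate, a fit added after the data were seen, edgeR called 0 members of 33, with 3 (Irf9, Ifitm3 and Ifit3) at an unadjusted p under 0.05, and the log2 fold change of Isg20 changed from 3.36 to -0.67. Over all 16200 genes tested this fit called 142 as higher and 49 as lower, so the loss of calls was general. Of these genes, 2357 had an unadjusted p under 0.05 in it. Of the 5 Gata3-GFP+ HC pools highest in Isg20, 4 were among the 5 highest in megakaryocyte markers. The HC populations overlapped in megakaryocyte level only between 1632 and 3695 CPM, so the part of the megakaryocyte genes and that of the GFP gate in these differences cannot be told apart.

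**Figure D4:**
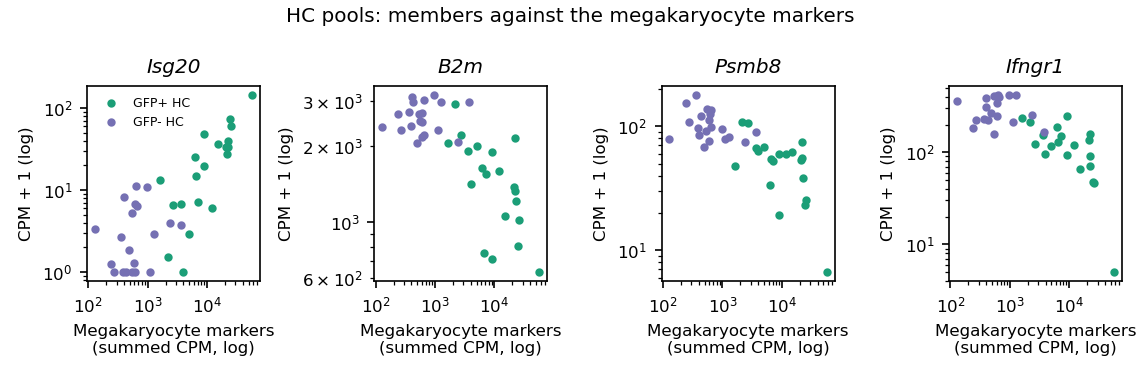
Level of Isg20, B2m, Psmb8 and Ifngr1 (vertical, CPM + 1, log axis) in each HC pool against the summed level of 4 megakaryocyte markers (horizontal, CPM, log axis), with Gata3-GFP+ and Gata3-GFP- pools in different colors. Gata3-GFP+ pools extend from 1632 to 57066 CPM of megakaryocyte markers and Gata3-GFP- pools from 128 to 3695 CPM, and Isg20 reaches 144 CPM among the former.

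The EC and HC comparisons share no pools, so the difference of the Gata3-GFP effect between them could be tested directly. Of the 22 members tested in both, 6 were higher in Gata3-GFP+ EC and lower in Gata3-GFP+ HC (Ifnar1, Ifngr1, Bst2, Xaf1, Psmb8 and B2m), and Ifitm2 was higher in both. Another 7 were called as higher in EC and not called in HC (Irf2, Irf3, Ifitm1, Ifitm3, Ifih1, Gbp2 and Gbp3), and 3 were not called in EC and lower in HC (Ifnar2, Irf1 and Irf9). Among all genes tested, 19.5% were called as higher in EC and 9.53% as lower in HC. How many of all genes combined their calls in these ways was not counted. Psmb8, Ifih1, Gbp2 and Gbp3 passed the EC count filter only through the Gata3-GFP+ pools, which in itself places them higher there. Of 33 members in the test of the difference, 18 had a lower effect in HC than in EC and 1, Rsad2, a higher one, where 22.7% of 17851 genes were called, 8.6% as lower and 14.1% as higher. Among the 18, Irf4, Irf7 and Isg15 passed the count filter only through HC, and no Gata3-GFP- EC pool held 10 counts of them. The median difference over the members was -1.41 on the log2 scale and 0.11 over all genes.

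The clearest differences were those of Bst2 (-2.47 ± 0.22, adjusted p = 1.68e-15), Ifitm3 (-2.80 ± 0.29, adjusted p = 8.13e-13), Irf2 (-1.82 ± 0.21, adjusted p = 4.42e-11) and Ifngr1 (-2.32 ± 0.28, adjusted p = 2.37e-10). For Irf3 and Irf1, called in 1 comparison each, the difference itself did not pass (-0.44, adjusted p = 0.0405 and -1.41, adjusted p = 0.0137). Rsad2 had a difference of 4.92 ± 0.97 (adjusted p = 2.8e-05), since it was lower in Gata3-GFP+ EC and, without passing the test, at a log2 fold change of 2.41 in HC. For Ifitm2 the difference did not pass (-0.36 ± 0.14, adjusted p = 0.0331). Under ERCC scaling 10 members had a lower effect in HC than in EC, and the median of all genes moved from 0.11 to 0.75. Of all 17851 genes tested, 519 then had a lower effect in HC and 5241 a higher one.

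Across all E10.5 pools, HC had higher levels than EC for 22 members and lower levels for 3 of the 33 tested, where 50.6% of 17851 genes were called, 26.6% as higher and 24% as lower. The median log2 fold change was 1.60 over the members and 0.04 over all genes. Of the 33, 11 passed the count filter only through HC (Mx1, Irf4, Mx2, Irf7, Irf5, Usp18, Isg15, Tap1, Isg20, Ifit3 and Psmb9), which in itself places them higher there. Among those that passed it in each cell type alone, Psmb8 (log2 fold change 4.73 ± 0.22, adjusted p = 1.73e-32), Ifitm1 (3.26 ± 0.44) and Gbp3 (2.52 ± 0.37) had the largest increases. Of Psmb8, Gata3-GFP- HC held 67.0 to 178 CPM and no EC pool more than 11.9 CPM. Psmb8 and Gbp3 passed in EC only through the Gata3-GFP+ pools. Ifitm1 was uneven in HC. With 1 pool of each HC population set aside, its median was 12.3 CPM in Gata3-GFP+ and 40.25 CPM in Gata3-GFP- HC. Its highest levels there were 713 and 1164 CPM. The Ifitm1 median of Gata3-GFP+ EC, given above, exceeded that of Gata3-GFP+ HC.

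The 3 members lower in HC than in EC were Rsad2 (-3.41 ± 0.49, adjusted p = 5.13e-09), Irf2 (-0.84 ± 0.11, adjusted p = 6.91e-11) and Ifitm2 (-0.81 ± 0.07, adjusted p = 4.01e-18). Ifnar1, Irf3, Irf9, Stat2, Ifitm3, Eif2ak2, Bst2 and Xaf1 did not pass. For Bst2 the log2 fold change was 0.01 ± 0.11, since Gata3-GFP+ EC and Gata3-GFP- HC had the higher medians of their cell types (143 and 104 CPM).

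At E11.5 the sum of 12 macrophage markers did not pass 22.6 CPM in any pool, and most of the antiviral effectors were low. Psmb8 and Gbp3 did not pass 5.43 CPM, and Xaf1 did not pass 3.85 CPM, in any MC or SNS pool. B2m, Ifitm2, the receptor chains and Irf3 were present in every pool. Between Gata3-GFP+ and Gata3-GFP- MC, edgeR called 0 of 22 members tested, where 4.36% of 16026 genes were called, 2.21% as higher and 2.15% as lower. In no member were the pools of the 2 MC populations apart, against 0.0312% of genes tested. At an unadjusted p under 0.05 (edgeR), 2 members (Ifngr2 and Bst2) would have passed, where 3611 of all 16026 genes would have. DESeq2's Wald test also called 0 members, where it called 543 genes as higher and 431 as lower.

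Without the 12 pools that ran against their gate, 20 members were tested in MC and 2 were higher in Gata3-GFP+ MC, where 10.4% of 15226 genes were called, 5.52% as higher and 4.89% as lower. Ifngr2, the signaling chain of the interferon gamma receptor, was 66.7, 78.9 and 120 CPM (lowest, median, highest) in Gata3-GFP+ and 27.9, 48.4 and 98.3 CPM in Gata3-GFP- MC, with overlap (log2 fold change 0.69 ± 0.14, adjusted p = 0.000275). Ifitm2 had medians of 407 and 334 CPM (0.22 ± 0.05, adjusted p = 0.00333). With the 12 pools Ifngr2 had a log2 fold change of 0.65 and an adjusted p of 0.078.

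Between Gata3-GFP+ and Gata3-GFP- SNS, 2 of 20 members were lower in Gata3-GFP+ pools and 0 higher, where 3.87% of 16143 genes were called, 2.01% as higher and 1.86% as lower. No member's pools were apart, against 0.00619% of genes tested. Ifitm1, 1 of the 2, passed the count filter only through the Gata3-GFP- pools, which in itself places it lower in the others. Leaving out the 12 pools, 4 of 18 were lower (Ifitm1, Ifitm3, Ifngr2 and Ifnar2), where 10.4% of 15658 genes were called, 4.94% as higher and 5.48% as lower. Ifitm1 was the most divided. In the remaining pools it had 17 counts in all over the 15 Gata3-GFP+ SNS pools, none above 5, and its level did not pass 0.85 CPM. In the 16 Gata3-GFP- SNS pools it was 0, 35.4 and 187 CPM with 5659 counts in all. Some Gata3-GFP- pools were as low as the Gata3-GFP+ ones, so the ranges overlapped. The log2 fold change was -5.66 ± 0.82 with the 12 pools (adjusted p = 1.38e-05) and -7.92 ± 0.79 without them (adjusted p = 5.33e-09).

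Ifngr2 was lower in Gata3-GFP+ SNS, in the direction opposite to MC. In the pools that matched their gate it was 5.74, 16.98 and 28.6 CPM in Gata3-GFP+ and 14.1, 36.7 and 60.03 CPM in Gata3-GFP- SNS (log2 fold change -1.16 ± 0.20, adjusted p = 5.49e-05); with them it was -0.98 ± 0.22 (adjusted p = 0.00329). Ifnar2 had medians of 13.3 and 26.9 CPM without them (-0.81 ± 0.17, adjusted p = 0.000706) and did not pass with them (-0.52, adjusted p = 0.124). Ifitm3 had medians of 2.45 and 6.02 CPM without them (-1.39 ± 0.38, adjusted p = 0.00824) and did not pass with them (-0.95, adjusted p = 0.335).

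Markers of other cells differed between the SNS populations too. Without these 12, all 7 mesenchymal markers were called as lower in Gata3-GFP+ SNS, their sum being 100.5 to 335 CPM against 367 to 897 CPM, without overlap. The median sum of 6 epithelial and urogenital markers was 2.38 against 79.8 CPM, with 2 of 5 tested called as lower, and 6 of 8 sympathetic and neural crest markers were called as higher and 1 as lower. Ifngr2, Ifnar2 and Ifitm3 were also lower in SNS than in MC, as given below. The part of these marker genes in the SNS result was not tested.

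**Figure D5:**
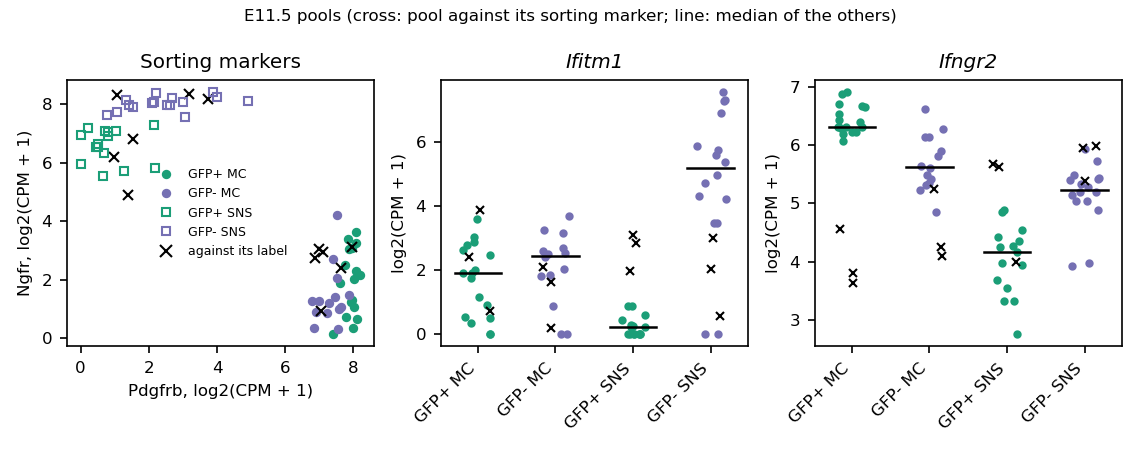
The E11.5 pools that passed, with the sorting markers Pdgfrb and Ngfr plotted against each other (left) and the levels of Ifitm1 (middle) and Ifngr2 (right) by population, all as log2(CPM + 1); crosses mark the 12 pools against their gate and lines the medians of the other pools. Apart from the crosses, Ifitm1 stays at or below 0.85 CPM in Gata3-GFP+ SNS and reaches 187 CPM in Gata3-GFP- SNS, and Ifngr2 is highest in Gata3-GFP+ MC.

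Between SNS and MC, 10 of 24 members were lower in SNS and 0 higher, where 23.4% of 17733 genes were called, 11.4% as higher and 12% as lower. These were Ifnar2, Ifngr2, Irf1, Irf5, Irf9, Ifitm2, Ifitm3, Isg15, Eif2ak2 and B2m. Isg15, and Gbp2 named next, passed the count filter over all pools only through MC, which in itself places them lower in SNS. After removal of the 12 pools 12 were lower, those 10 and also Ifih1 and Gbp2, and Ifit2 was higher, where 40.2% of 17309 genes were called, 20.5% as higher and 19.7% as lower. Under ERCC scaling, with the 12 pools, 4 were lower and 4 higher, where 922 of 17733 genes were called as lower and 7623 as higher. The median of all genes moved to 0.48, and Ifitm2 changed direction, from -0.35 to 0.086.

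Over the pools that matched their gate, Ifitm3 had medians of 44.7 and 31.9 CPM in Gata3-GFP+ and Gata3-GFP- MC and of 2.45 and 6.02 CPM in SNS (log2 fold change -3.45 ± 0.20, adjusted p = 8.76e-24). No MC pool fell as low as the highest SNS pool, but the share of all genes apart in this way was not counted. Irf5 had medians of 14.7 and 7.88 CPM in MC and did not pass 4.55 CPM in SNS (-4.69 ± 0.50, adjusted p = 1.58e-12). Isg15 had 118 and 63 counts in all over the Gata3-GFP+ and Gata3-GFP- MC pools and 1 count over each SNS population, but its median was at most 0.785 CPM in MC. Ifit2 ran the other way, with medians of 4.23 and 11.2 CPM in MC and 25.2 and 15.9 CPM in SNS (1.08 ± 0.27, adjusted p = 0.000658).

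The difference of the Gata3-GFP effect between SNS and MC was called for 4 of 24 members, all with a lower effect in SNS, where 9.66% of 17733 genes were called, 5.17% as higher and 4.49% as lower. These were Ifngr2 (-1.64 ± 0.33, adjusted p = 0.000144), Ifitm1 (-5.49 ± 0.96, adjusted p = 1.58e-05), Bst2 (-2.95 ± 0.79, adjusted p = 0.00512) and Gbp2. When the 12 pools were left out, Ifngr2 (-1.84), Ifitm1 (-7.41) and Bst2 (-2.91) were called again, with Ifnar2 (-1.08) and Ifitm3 (-1.90), whereas Gbp2 was not (adjusted p = 0.0244), where 10.4% of 17309 genes were called, 4.73% as higher and 5.64% as lower. Gbp2 was at 0 in every Gata3-GFP+ SNS pool and had 10 counts in 2 of 19 Gata3-GFP- SNS pools, so its fitted difference of -6.83 depends on the fit and is no bound.

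Of 73 other genes of the interferon pathway, 72 had a row; their E11.5 levels are given over the pools that matched their gate. In EC 22 of the 48 tested were higher in Gata3-GFP+ pools and 3 lower, beside 19.5% and 16.5% of all genes, and in HC 4 of 56 were higher and 18 lower, beside 17.1% and 9.53%. Under ERCC scaling 11 were higher and 7 lower in EC, beside 951 and 5685 of all 15073 genes. With the megakaryocyte covariate edgeR called 0 of the 56 in HC, beside 142 higher and 49 lower of all 16200 genes. Among the largest called changes in EC were those of Ifi44 (0 to 90.0 CPM, median 26.2, against a median of 0; log2 fold change 6.52 ± 0.58) and Gbp5 (4.59 ± 0.86), which had a median of 0 in both. In HC they included Iigp1, an immunity-related GTPase (medians 1.74 and 0 CPM, 6.28 ± 0.89), and Ifitm6 (0.0641 and 6.02 CPM, -3.83 ± 0.73). The effect in HC was lower than in EC for 25 of 59 and higher for 2, beside 8.6% and 14.1% of all genes.

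Between HC and EC, 40 of the 59 tested were higher in HC and 5 lower, beside 26.6% and 24% of all genes. The largest changes were those of Ifi204 (6.42 ± 0.26), a DNA sensor of the p200 family, Tlr7 (5.88 ± 0.29), an RNA-sensing Toll-like receptor, and Ifi203 (5.72 ± 0.52). In MC, 1 of 36 was higher in Gata3-GFP+ pools and 0 lower, beside 2.21% and 2.15% of all genes. This was Iigp1, at 149, 240 and 385 CPM against 11.9, 39.7 and 135 CPM (2.23 ± 0.57, adjusted p = 0.00811, and 2.19 ± 0.26 without the 12 pools). Without those 12 the ranges did not overlap, but the share of all genes without overlap was not counted for this set of pools. In SNS, 1 of 39 was lower in Gata3-GFP+ pools and 0 higher, beside 1.86% and 2.01% of all genes. This was the receptor-associated kinase Jak1 (medians 62.7 and 98.3 CPM, -0.76 ± 0.11, and -0.81 ± 0.12 without the 12 pools). Without the 12 pools 2 of 31 were higher in Gata3-GFP+ MC, beside 5.52% of all genes. In Gata3-GFP+ SNS 2 of 36 were then higher and 3 lower, led by Ifi27 (-4.21), beside 4.94% and 5.48% of all genes. Between SNS and MC, 5 of 44 were higher in SNS and 7 lower, among them Cxcl10 (5.03) and Parp14 (2.61), beside 11.4% and 12% of all genes. Without the 12 pools 9 of 42 were higher and 13 lower, among them Iigp1 (-6.64) and Parp14 (5.57), beside 20.5% and 19.7% of all genes.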

How the data were processed

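Smart-seq2 libraries of pools of 20 cells were sequenced single-end (125 bases) with ERCC spike-ins and no molecular identifiers. The deposited values are raw counts of reads per gene, made by the authors with HTSeq. The study's methods name STAR and the submitters' processing notes name GSNAP 2015-09-29 with HTSeq 0.5.3p3 on mm10, so the aligner is uncertain. The strand setting was not given in the sources used here, and overlapping genes, antisense genes and close paralogs (the Ifitm, Ifit, Gbp and Mx genes) may share or lose reads; a median of 16.3% of reads per pool were ambiguous between genes. Rows that name no gene and the 92 spike-ins were left out of gene totals. Symbols, positions and exon lengths came from GENCODE M21 (GRCm38).

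Pools were kept with at least 500000 reads, 20% of reads on genes, at most 20% mitochondrial and at most 20% spike-in reads; 153 of 160 passed. The study's further limit on the number of high coverage genes was not applied. No 2 pools held identical values. A gene was tested where 5 or more of the compared pools held 10 or more of its counts, with edgeR 4.0.16 (R 4.3.3), its robust quasi-likelihood test, TMM scaling and Benjamini-Hochberg adjustment over all genes tested. Calls took the thresholds in the study's methods and supplement, 0.01 for the adjusted p and 0.1 for the size of the log2 fold change. The standard error is the log2 fold change divided by the square root of F. Each Gata3-GFP comparison was fitted on its own populations, and cell types and differences of effects on all pools of a stage. CPM is per 1000000 gene counts. In simulated HC data the test recovered 51.1% of genes changed 2-fold and 82.0% of those changed 4-fold, with 4 false calls among 15694 genes; for the difference between HC and EC it recovered 22.5% and 66.1%, with 6 among 17210.

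Alternatives were DESeq2 1.42.0 (size factors and Wald test), ERCC size factors (scran 1.30.0 for the study's t-test on normalized counts), other count filters, all 160 pools, and covariates. The 34 members were all described, by role, and of the other pathway genes at most the 3 largest called changes in each comparison were named. Single values of some genes on that list are not reported here. The members and lists were chosen with earlier results of these data known.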

Additional observations from a re-analysis of the deposited data

Results flagged for a closer look

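The following members are listed because the test of the difference of the Gata3-GFP effect between cell types passed. Values are differences of log2 fold changes, and a negative value means a lower effect in HC than in EC. Among receptors these were Ifngr1 (-2.32), Ifnar1 (-1.17) and Ifnar2 (-0.997), and among transcription factors Irf9 (-1.65), Irf2 (-1.82), Irf7 (-2.95) and Irf4 (-5.43). Irf4 had a median of 0 in all populations and a total of 1 count in Gata3-GFP- EC, and Irf7 had a median of 0 in both EC populations, so their values rest on few pools. Among effectors and sensors the differences were Rsad2 (4.92), Bst2 (-2.47), Xaf1 (-2.84), Isg15 (-3.36), Ifih1 (-2.99) and Eif2ak2 (-1.07). Ifitm1 (-4.92) and Ifitm3 (-2.80), Gbp2 (-3.04) and Gbp3 (-4.70), and Psmb8 (-2.43) and B2m (-1.10) completed the 19 members. Rsad2 was the only one with a higher effect in HC. Irf4, Irf7 and Isg15 passed the count filter of this fit only through HC.

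Between SNS and MC the difference passed for Ifngr2 (-1.64), Ifitm1 (-5.49), Gbp2 (-6.83) and Bst2 (-2.95), all with a lower effect in SNS. Without the 12 E11.5 pools against their gate Ifngr2, Ifitm1 and Bst2 were called again and Gbp2 was not. The marker levels that moved with the GFP gate in HC and SNS are given with the comparisons above, and their part in these differences was not tested.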

How the results depend on the processing

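Of the 88 calls among members over all comparisons, 87 were kept with DESeq2 size factors, 86 with all pools, 83 without a count filter, 82 with DESeq2's Wald test and 76 of the 76 still tested with at least 10 counts in 20 pools; the study's t-test kept 27 of 30. ERCC scaling kept 60, lost 24 and reversed 4. Under it the members called in EC were 6 higher and 2 lower, in HC 1 higher and 8 lower, in SNS 1 higher and 1 lower, and between SNS and MC 4 higher and 4 lower. Over all genes it called 951 as higher and 5685 as lower in EC, 2097 and 948 in HC, 844 and 169 in SNS, and 7623 and 922 between SNS and MC. The difference between HC and EC was lower for 10 members, where ERCC scaling called 519 of 17851 genes as lower and 5241 as higher. Among members called in either fit, its log2 fold changes with another sign were Ifnar1 -0.061, Irf3 -0.34 and B2m -0.40 in EC, and Ifnar1 0.38, Irf3 0.44 and Ifitm2 0.086 between SNS and MC; all scale with spike-in share, and the cause of that share was not tested. In HC the macrophage covariate left 7 members lower and 2 higher, where 944 of 16200 genes were called as lower and 1817 as higher. The megakaryocyte covariate left 0 higher and 0 lower, with Ifnar1 0.053, Ifitm2 -0.11, Isg20 -0.67, Psmb8 0.026 and Psmb9 0.37; the cause was not tested. Without the Gata3-GFP+ HC pool lowest in Ptprc 55 of 57 calls were kept (Ifnar1 in HC and the Eif2ak2 difference were lost). Without the 12 pools against their gate 2 members were higher in MC, 4 lower in SNS and 1 higher in SNS than in MC, and 15 of 16 calls were kept. With at least 10 counts in 20 pools 1 member was lower in SNS. This last covariate and both removals of pools were chosen after seeing the data. No paired analysis was possible because the columns of the count table carry no replicate number shared between populations. At 1400824 counts, the lowest depth, 3 counts equal 2.14 CPM, so differences of members below that level were not detectable in single pools.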

Other observations

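These pools were singled out after their values were seen. One Gata3-GFP+ HC pool was the highest of its population in 9 members, where the next pool was highest in 6. It held Ifit1 at 15.2 CPM, Ifit3 at 18.7 CPM, Mx1 at 32.7 CPM, Mx2 at 17.1 CPM, Rsad2 at 17.5 CPM, Usp18 at 28.8 CPM, Ifih1 at 28.0 CPM, Gbp3 at 32.3 CPM and Irf4 at 5.84 CPM. In the other pools of that population the median of Ifit3 was 0 and its highest level 2.14 CPM. The chemokine gene Cxcl10, another interferon target, was at 53.8 CPM in this pool, and Ifnb1 was at 0. A Gata3-GFP- SNS pool, 1 of the 12 against their gate, was also the highest of its population in 9 members, the next in 6.

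The Gata3-GFP- HC pool that held 156 counts of Ifnb1 (44.6 CPM) had Cxcl10 at 58.5 CPM, the highest level of that gene in its population. Ifit1 was at 1.14 CPM, Ifit3 at 0.286 CPM and Mx1 at 1.999 CPM in this pool. A pool of 20 cells may hold a single cell with these transcripts, which these data do not resolve.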
